A study of Drosophila melanogaster with 9 samples.

Results

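The genes described here are the small nuclear, small nucleolar and small Cajal body RNA genes of Drosophila melanogaster, taken as every gene of the normalized count matrix whose symbol starts with snRNA, snoRNA or scaRNA. They number 319 of the 15334 genes of the matrix, of which 31 are snRNA, 282 are snoRNA and 6 are scaRNA genes. A test was made on the genes with a mean normalized count of at least 10 over the 9 libraries, which were 9 snRNA, 17 snoRNA and 0 scaRNA genes among 8346 genes in all. On the snRNA side the genes nearest that minimum were snRNA:7SK (mean 12.4) inside it and snRNA:U4atac:82E (7.66) outside it, and on the snoRNA side they were snoRNA:Me18S-A1576 (10.1) and snoRNA:Psi28S-2622 (8.18).

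The study sequenced RNA from embryos laid by mothers mutant for obelus (obe, listed as CG5205/obelus), which encodes a Ski2-family RNA helicase. The wild type was Oregon-R (OreR). The obe1/obe2 group held the progeny of mothers carrying the obe1 and obe2 alleles over each other, crossed to obe2/+ fathers. The obe2/Df group held the progeny of mothers carrying obe2 over a deficiency, crossed to obe2/+ fathers. The embryos of both mutant groups were therefore mixed in their own genotype, and obe function of the mother and other differences between the OreR and obe stocks cannot be told apart. Each group had 3 libraries, each made with a TruSeq RNA kit from Trizol total RNA of about 50 hand-picked embryos, aged 3 h and between late stage 5 and early stage 6. Whether the 3 RNA isolations of a group came from separate crosses was not stated, so the p-values measure library-to-library spread, some of which may be technical.

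The spliceosome is built on small nuclear RNAs. U1, U2, U4, U5 and U6 serve the common class of introns, and U11, U12, U4atac and U6atac, with U5, serve the rare class called minor or U12-type introns. Most snoRNAs guide chemical modification of ribosomal RNA in the nucleolus. Box C/D snoRNAs direct methylation of a ribose and are named Me here, box H/ACA snoRNAs direct pseudouridine formation and are named Psi, and scaRNAs do the same work on snRNAs. In flies most snoRNAs are cut out of the introns of host genes. The finished RNAs carry no poly(A) tail, and a kit that selects tailed RNA takes few of them, so the values below describe the part of each RNA that entered such a library. Finished, precursor and unspliced host RNA cannot be told apart in gene counts.

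The recovered read totals were 61007517 to 123121486 per library. The obe gene had 5850.1, 8562 and 6755 normalized counts in OreR, against 821, 672.0 and 698 for obe1/obe2 and 277, 245 and 183 for obe2/Df, which matched the labels (log2 fold change -3.26 and -4.91). The crb gene, which encodes the apical polarity protein Crumbs, passed the test in neither comparison with OreR (log2 fold change -0.31, adjusted p = 0.10, and 0.26, adjusted p = 0.0884). Of 18 genes that embryos transcribe strongly at this stage, such as ftz and sna, limma, edgeR and DESeq2 each called 0 in obe1/obe2, as did an unadjusted p under 0.05 with limma, while all 18 were lower in obe2/Df. Their median log2 fold change was -0.45 and -4.55. The mean log2 level of these 18 genes differed from the OreR mean by -7.12 in obe2/Df replicate 1 and by -2.74 and -3.38 in replicates 2 and 3, so counts for obe2/Df are also given without replicate 1. In obe1/obe2 replicates 1, 2 and 3 that mean level differed by -1.02, 0.26 and -0.76, where the OreR libraries ran from -0.23 to 0.34. Of the 18 genes, 16 had a log2 fold change below 0 in obe1/obe2. Markers of follicle cells, which surround the egg in the ovary, summed to between 0 and 15.6 normalized counts per library over 9 genes, and 5 to 9 of the 9 were at 0 in each library. The 6 pole cell markers, such as nos and vas, summed to 408742 to 475024 in OreR, against 481111 to 561022 for obe1/obe2 and 535502 to 606567 for obe2/Df, with no overlap with OreR. Most of each sum was CycB, with 317832 to 383797 in OreR, 414531 to 460782 for obe1/obe2 and 411257 to 461259 for obe2/Df. Of the 6 markers, gcl and CycB were higher and nos lower in obe1/obe2, where 4 log2 fold changes were below 0. In obe2/Df vas, osk, pgc and CycB were higher and nos was lower. The 6 markers of later embryonic tissues summed to 738 to 1786 in OreR, 315 to 1299 for obe1/obe2 and 50.1 to 480.3 for obe2/Df, where 3 were lower, while limma, edgeR and DESeq2 called 0 in obe1/obe2 (1 lower at an unadjusted limma p under 0.05).

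The 31 snRNA genes together took a smaller share of the reads in the embryos of obe mothers, with means that were 3.30 and 3.41 times higher in OreR than in obe1/obe2 and obe2/Df. They held 16.2, 13.98 and 18.2 RPM (reads per 1000000 counted reads) in OreR, against 5.54, 6.00 and 3.11 for obe1/obe2 and 3.75, 5.13 and 5.28 for obe2/Df. The 3 OreR libraries lay above all 6 others. U12:73B alone held 507, 699 and 620 of the 1164, 1414 and 1258 snRNA reads in OreR, and 10 of the 31 genes were at 0 in all 9 libraries. The 282 snoRNA genes held 19.7, 13.99 and 13.7 RPM in OreR, against 7.88, 13.3 and 9.13 for obe1/obe2 and 7.23, 8.72 and 9.61 for obe2/Df. The groups did not overlap here either, and OreR means were 1.57 and 1.86 times higher, but the highest obe1/obe2 library (13.3) came close to the lowest of OreR (13.7). These sums were not tested. Fewer cells holding an RNA and less of it per cell cannot be told apart in whole embryos.

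**Figure D1:**
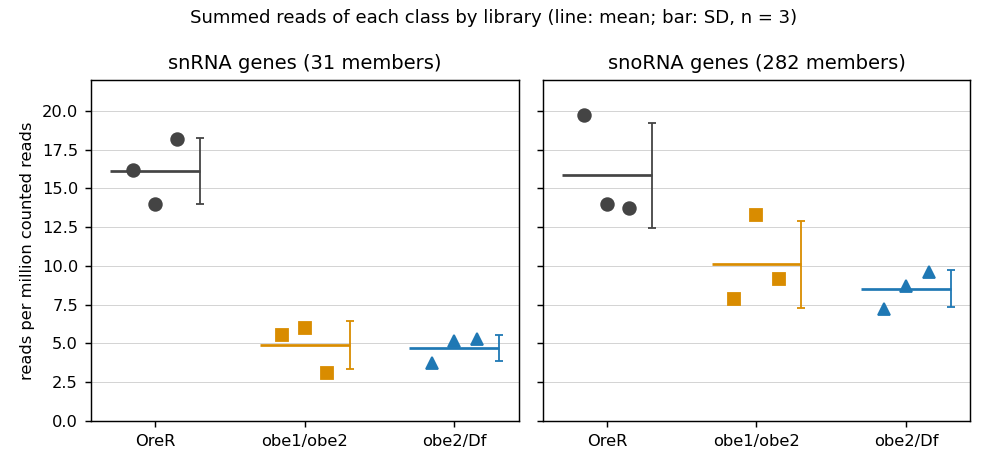
Reads of the 31 snRNA genes (left) and the 282 snoRNA genes (right) in RPM, 1 point per library, with the mean and SD of the 3 libraries of each group. The OreR libraries lie at 13.98 to 18.2 for snRNA and 13.7 to 19.7 for snoRNA genes, above every library of the obe groups.

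Among the 9 tested snRNA genes, 5 were lower and 1 was higher in obe1/obe2 than in OreR at a Benjamini-Hochberg adjusted p under 0.05 (limma over all 8346 genes). Of all tested genes 22.6% were called in that comparison, 11.7% lower and 11% higher. In obe2/Df, 6 of the 9 were lower and 1 was higher, where 60.5% of all tested genes were called, 29.5% lower and 31% higher. All 3 obe1/obe2 libraries lay below all 3 of OreR for 6 of the 9 and above them for 1, as for 20.2% and 17.1% of all tested genes, and the same counts held for obe2/Df, against 34.3% and 36.2% of all tested genes. The median log2 fold change of the 9 was -2.14 and -2.33, against -0.07 and -0.01 over all tested genes. Both comparisons use the same 3 OreR libraries. Of the 9, 3 reached a mean of 10 in OreR alone, U2:14B, U5:23D and U2:38ABb, and so could hardly have been tested without being higher there, and 2 reached it only in an obe group, U5:14B and 7SK. Without obe2/Df replicate 1, 5 snRNA genes passed the test in obe2/Df. The share of all tested genes called in that fit is not given here, so the count has no background beside it. Along with the snRNAs, the 18 early embryonic genes and 3 of the 6 markers of later tissues fell in obe2/Df. The summed pole cell markers, mostly CycB, were higher in both obe groups, while the marker nos was called lower in both. In obe1/obe2 the 5 lower snRNA genes were called with 0 of those 18 called. However, 16 of the 18 had a log2 fold change below 0 there. The part of these other genes in the result was not tested.

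The snRNA with the highest mean over the 9 libraries was U12, the RNA of the minor spliceosome that pairs with the branch site. Gene snRNA:U12:73B had 596, 591 and 740 normalized counts in OreR, against 193, 183 and 84.4 for obe1/obe2 and 112, 132 and 122 for obe2/Df. All 6 libraries from obe mothers lay below all 3 of OreR. U12 was 4.41-fold lower in obe1/obe2 (log2 fold change -2.14, SE 0.32, adjusted p = 0.00175) and 5.21-fold lower in obe2/Df (-2.38, SE 0.32, adjusted p = 0.000552). It lies on chromosome arm 3L in an intron of Baldspot, on the opposite strand, and a library that does not mark strand cannot separate U12 from Baldspot intron reads. Baldspot itself passed the test in neither comparison (0.22, adjusted p = 0.137, and -0.02, adjusted p = 0.859).

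U11, which joins U12 in one particle and recognises the 5′ splice site of the same introns, passed neither test. Gene snRNA:U11 had 160, 104 and 140 normalized counts in OreR, against 145, 139 and 88.2 for obe1/obe2 and 97.7, 144 and 137 for obe2/Df. The 3 groups overlapped, with log2 fold changes of -0.13 (SE 0.30, adjusted p = 0.790) and -0.09 (SE 0.30, adjusted p = 0.806). The ratio of its summed reads, scaled to library size, was 0.974 in obe1/obe2, with an exact 95% counting interval of 0.842 to 1.13, and 0.926 in obe2/Df (0.804 to 1.07). For U12 the same ratios were 0.252 (0.227 to 0.279) and 0.188 (0.169 to 0.210), where these intervals cover counting error only. The difference between the changes of U11 and U12 was not tested. U11 lies in an intron of Fie, again on the opposite strand, and Fie was lower in obe2/Df (-1.95, adjusted p = 0.00243) but not called in obe1/obe2 (-1.12, adjusted p = 0.0581). The other minor snRNAs were below the minimum, U4atac:82E with a mean of 7.66 and U6atac:29B with a mean of 0.377.

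U1, which recognises the 5′ splice site of most introns, had reads in 2 of its 5 gene copies, and both had lower values in the obe groups. Gene snRNA:U1:82Eb on arm 3R had 254, 179 and 217 normalized counts in OreR, against 6.70, 9.16 and 15.1 for obe1/obe2 and 44.3, 41.1 and 40.6 for obe2/Df. None of the 3 groups overlapped. It was 20.0-fold lower in obe1/obe2 (log2 fold change -4.32, SE 0.33, adjusted p = 6.02e-05) and 5.02-fold lower in obe2/Df (-2.33, SE 0.33, adjusted p = 0.000751). Gene snRNA:U1:95Cc, in an intron of CG34355, had 74.1, 39.7 and 56.1 in OreR, against 29.7, 36.6 and 12.6 for obe1/obe2 and 13.7, 20.5 and 25.4 for obe2/Df. Its values lay below OreR in all 6 obe libraries, but it passed the test only against obe2/Df (-1.46, SE 0.47, adjusted p = 0.0240) and not in obe1/obe2 (-1.16, SE 0.47, adjusted p = 0.108), and no test compared these changes beyond the direct contrast of the mutant groups (-0.30, adjusted p = 0.616). The obe2/Df call was lost without OreR replicate 1, OreR replicate 3 or obe2/Df replicate 1, with adjusted p between 0.0592 and 0.0826, and was not made in the authors' deposited table (adjusted p = 0.124). The host CG34355 passed neither test (0.41 and 0.21).

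U2, which binds the branch site of most introns, had reads in 3 of its 6 gene copies, and both tested ones fell to a mean of at most 5.33 normalized counts. Gene snRNA:U2:14B on the X chromosome had 126, 125 and 150 normalized counts in OreR, against 1.91, 12.8 and 1.26 for obe1/obe2 and 1.95, 6.42 and 1.69 for obe2/Df. Those values rest on 381 reads in OreR, against 17 for obe1/obe2 and 10 for obe2/Df. The log2 fold change on the log2(count + 1) scale was -4.90 (SE 0.71, adjusted p = 0.00164) and -5.11 (SE 0.71, adjusted p = 0.000666), and the first was -5.71 without obe1/obe2 replicate 2. Scaled to library size, OreR held 22.9 times the reads of obe1/obe2 (95% counting interval 14.1 to 39.7) and 46.4 times those of obe2/Df (25.0 to 97.5). Gene snRNA:U2:38ABb, in an intron of sick, had 39.98, 28.8 and 41.8 in OreR, against 1.91, 1.83 and 0 for obe1/obe2 and 0, 3.85 and 2.54 for obe2/Df. It was lower in both groups (-4.21, SE 0.70, adjusted p = 0.00332, and -3.86, SE 0.70, adjusted p = 0.00212), on 103 reads in OreR against 4 and 6, and the second value was -3.17 without obe2/Df replicate 1. Its host sick varied within each group and passed neither test (-0.68 and -0.75).

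U5, which holds the exons together during splicing, gave both directions. Gene snRNA:U5:23D, on arm 2L in an intron of v(2)k05816, had 48.2, 49.9 and 77.6 normalized counts in OreR, against 1.91, 4.58 and 3.78 for obe1/obe2 and 8.46, 11.6 and 8.47 for obe2/Df. It was 13.6-fold lower in obe1/obe2 (log2 fold change -3.77, SE 0.41, adjusted p = 0.000321) and 5.59-fold lower in obe2/Df (-2.48, SE 0.41, adjusted p = 0.00136), and its host passed neither test (0.51 and 0.45). Gene snRNA:U5:14B was the only tested member called higher than OreR, with 2.35, 10.1 and 5.97 in OreR, against 29.7, 23.8 and 17.6 for obe1/obe2 and 15.0, 15.4 and 18.6 for obe2/Df. All 6 obe libraries lay above all 3 of OreR. It was 3.79-fold higher in obe1/obe2 (1.92, SE 0.49, adjusted p = 0.0221) and 2.70-fold higher in obe2/Df (1.43, SE 0.49, adjusted p = 0.0305). Both calls rest on few reads (19 in OreR, 71 and 57 in the obe groups) and are close to the threshold. The first was lost without OreR replicate 1 or 3 or obe1/obe2 replicate 1 or 2, with adjusted p between 0.0510 and 0.0612, and the second without OreR replicate 1 or 3 or any 1 of the obe2/Df replicates, with adjusted p between 0.0570 and 0.0900. In the authors' deposited table neither was called (adjusted p = 0.331 and 0.457). Over all alternatives, the first was lost in 6 of 20 and the second in 10 of 20, including DESeq2 (adjusted p = 0.0868) and the fit with no minimum (0.0553).

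U5:14B and U2:14B are neighbours in the reference annotation, both between disco and CG12507 on the X chromosome, and they moved in opposite directions. The gene disco, which encodes a zinc finger transcription factor, had 183, 196 and 46.6 normalized counts in OreR and passed neither test (-1.40, adjusted p = 0.535, and -1.81, adjusted p = 0.322). CG12507 had 0 in 8 of the 9 libraries.

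U1, U2, U4, U5 and U6 each have several gene copies, whose sequences were not compared here. The sources used here do not give the way in which reads matching several copies were counted. The 3 U6 genes, 3 of the 5 U1 genes and 3 of the 6 U2 genes were at 0 in all 9 libraries, as were both 7SL RNA genes and 110 of 111 replication-dependent histone gene copies. Of the 3 U4 genes and the 7 U5 genes, 0 were at 0 in all libraries. The share of a family's RNA that each copy gave, and whether the copies of a family changed as a whole, is therefore uncertain. U12 and U11 are single genes. The last tested snRNA, 7SK, which holds the elongation kinase P-TEFb in an inactive form, had 7.06, 8.46 and 11.9 normalized counts in OreR, against 7.66, 38.5 and 12.6 for obe1/obe2 and 0, 5.14 and 20.3 for obe2/Df. Its groups overlapped and it passed neither test (0.75, adjusted p = 0.631, and -0.97, adjusted p = 0.430).

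**Figure D2:**
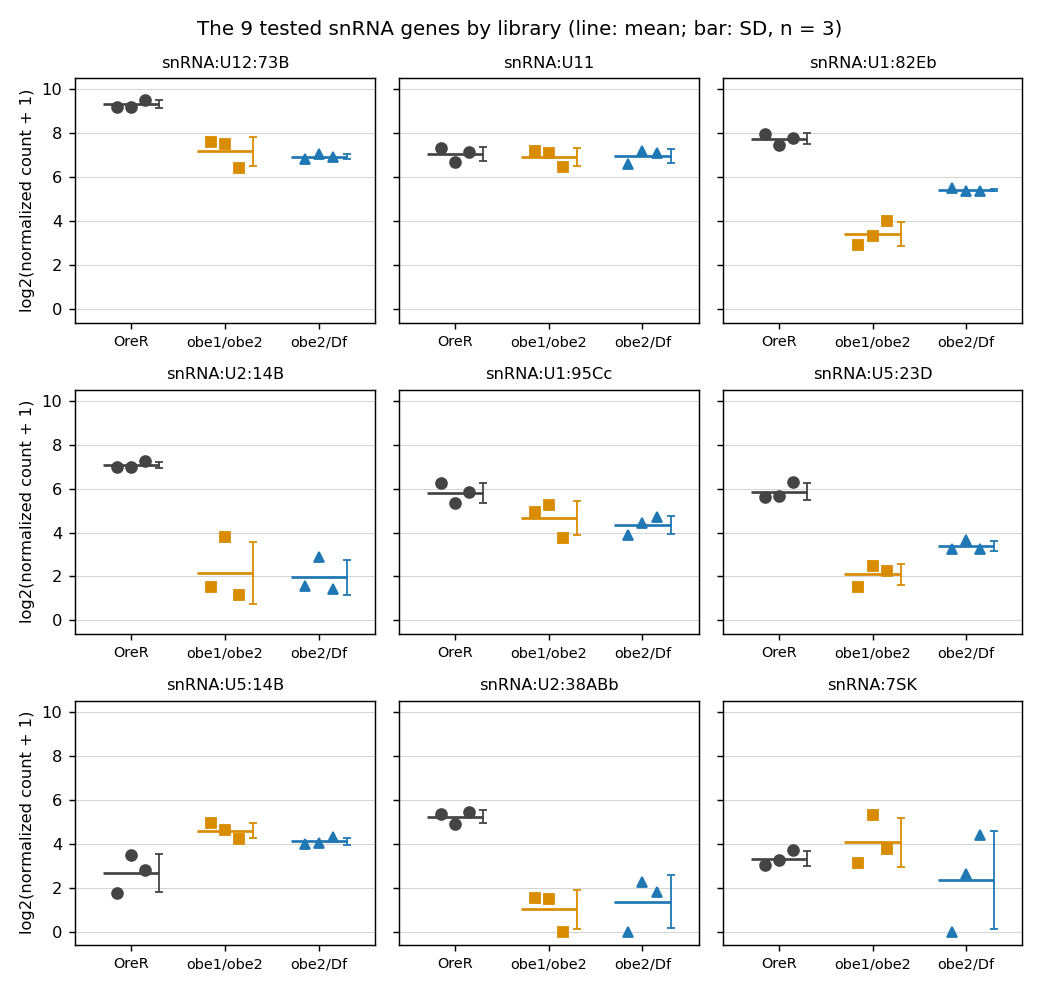
Level of each of the 9 tested snRNA genes as log2(normalized count + 1), 1 point per library, with the mean and SD of the 3 libraries of each group. U12:73B, U1:82Eb, U2:14B, U5:23D and U2:38ABb are lower in both obe groups, U11 stays between 88.2 and 160 normalized counts in all libraries, and U5:14B is higher in both obe groups.

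The contrast of obe2/Df with obe1/obe2 called 2 snRNA genes, both higher in obe2/Df, where 44.7% of all tested genes were called, 25.2% higher and 19.5% lower. In both genes the libraries of the mutant groups did not overlap, as for 30.7% of all tested genes higher and 29.2% lower. U1:82Eb was 3.98-fold higher in obe2/Df (log2 fold change 1.99, SE 0.33, adjusted p = 0.00288), and its 3 obe2/Df libraries (40.6 to 44.3 normalized counts) lay between those of obe1/obe2 and OreR. U5:23D was 2.44-fold higher (1.29, SE 0.41, adjusted p = 0.0309). That second call was lost without obe1/obe2 replicate 1 or 3 or any 1 of the obe2/Df replicates, with adjusted p between 0.0564 and 0.0901. The snRNA genes U12:73B, U2:14B, U1:95Cc and U2:38ABb, each called lower than OreR in at least 1 obe group, were not called in this contrast. Their log2 fold changes were -0.24, -0.21, -0.30 and 0.35. A relation between these values and the remaining obe counts was not tested.

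Among the 17 tested snoRNA genes, 4 were lower and 0 higher in obe1/obe2 than in OreR, and 6 were lower and 0 higher in obe2/Df. The shares called lower, 23.5% and 35.3%, are to be read against the 11.7% and 29.5% of all tested genes called lower. All 3 obe1/obe2 libraries lay below all 3 of OreR for 5 of the 17 and above them for 0. Of all tested genes, 20.2% and 17.1% did so. In obe2/Df these counts were 8 and 1, against 34.3% and 36.2% of all tested genes. The median log2 fold change of the 17 was -0.46 and -0.35. Between the mutant groups 0 of the 17 were called by limma, edgeR or DESeq2, with a median of 0.07 and 1 gene lower at an unadjusted limma p under 0.05. Among the calls against OreR, 0 snoRNA genes were higher by limma at an unadjusted p under 0.05, by edgeR or by DESeq2. Without obe2/Df replicate 1, 4 snoRNA genes passed the test in obe2/Df, again with no share of all tested genes given for that fit. Of the 17, 9 had a mean of at least 10 in every group, 1 reached it in OreR alone and 3 only in an obe group.

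**Figure D3:**
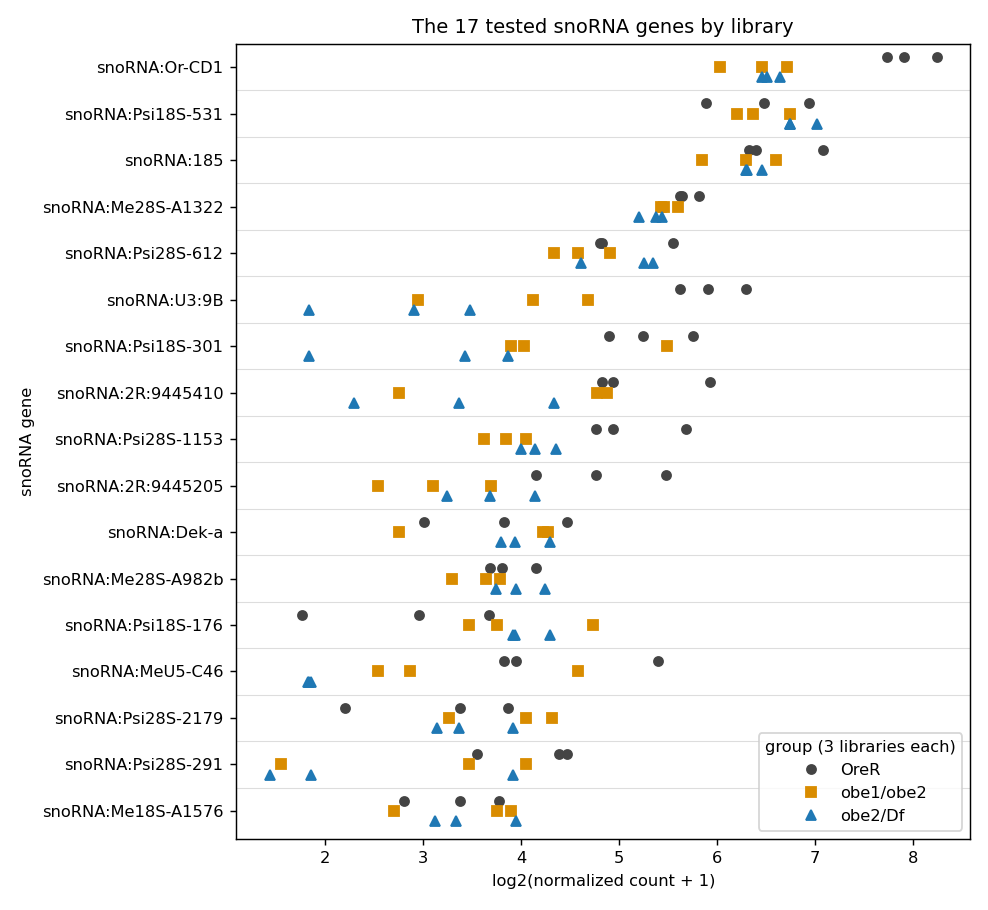
Level of each of the 17 tested snoRNA genes as log2(normalized count + 1), ordered by mean, with 1 marker per library and the 3 groups offset vertically. Or-CD1, Me28S-A1322, U3:9B, Psi28S-1153 and 2R:9445205 separate OreR from both obe groups, some of them narrowly. Psi18S-531 and snoRNA:185 overlap between groups.

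The largest snoRNA signal in OreR came from snoRNA:Or-CD1, a box C/D snoRNA whose current name, Me18S-C1968, refers to a methylated base of 18S ribosomal RNA. It had 303, 213 and 240 normalized counts in OreR, against 87.1, 104 and 64.3 for obe1/obe2 and 87.2, 98.9 and 90.6 for obe2/Df. All 6 obe libraries lay below all 3 of OreR. It was 2.96-fold lower in obe1/obe2 (log2 fold change -1.57, SE 0.26, adjusted p = 0.00300) and 2.69-fold lower in obe2/Df (-1.43, SE 0.26, adjusted p = 0.00198). In the authors' deposited table its adjusted p was 0.0659 in obe1/obe2 and 0.0429 in obe2/Df.

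Or-CD1 lies in an intron of Swim on arm 2R, and the host moved the other way. Swim had 0 normalized counts in all 3 OreR libraries, 34.5, 86.1 and 60.5 for obe1/obe2 and 5.21, 5.14 and 7.62 for obe2/Df. It was called higher in both obe groups (adjusted p = 6.02e-05 and 0.00131) and, between the mutant groups, higher in obe1/obe2 (adjusted p = 0.00238). In OreR the snoRNA thus had 711 reads in a gene whose exons had 0, which allows up to 3 reads.

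U3, which does not guide modification but is needed for the first cuts of the ribosomal RNA precursor, had reads in 1 of its 3 snoRNA gene copies. The other 2, and snRNA:U3:22A among the snRNA genes, were at 0 in all 9 libraries, so whether U3 changed as a whole is uncertain. The copy with reads, snoRNA:U3:9B on the X chromosome, had 48.2, 59.2 and 77.6 normalized counts in OreR, against 6.70, 24.7 and 16.4 for obe1/obe2 and 6.51, 2.57 and 10.2 for obe2/Df. OreR did not overlap either obe group. It was 9.20-fold lower in obe2/Df (log2 fold change -3.20, SE 0.57, adjusted p = 0.00199). In obe1/obe2 it was 4.07-fold lower (-2.03, SE 0.57, adjusted p = 0.0345), a call lost without any 1 of the OreR replicates or obe1/obe2 replicate 1 or 3, with adjusted p between 0.0674 and 0.106, and not made in the authors' deposited table (adjusted p = 0.0825). The obe1/obe2 call was also lost by limma with no minimum on the mean (adjusted p = 0.0536) and with the replicate block (0.0501).

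A run of 3 neighbouring snoRNA genes between link and CG13334 on arm 2R had lower values in the obe groups. The Psi name marks a pseudouridine guide, and the 2R names are places on the arm. Gene snoRNA:Psi28S-1153 had 50.6, 29.6 and 26.3 normalized counts in OreR, against 13.4, 15.6 and 11.3 for obe1/obe2 and 15.0, 16.7 and 19.5 for obe2/Df, with no overlap (log2 fold change -1.29, adjusted p = 0.0332, and -0.96, adjusted p = 0.0442). Gene snoRNA:2R:9445205 was called in obe1/obe2 alone (-1.69, adjusted p = 0.0390, against -1.11, adjusted p = 0.0806), and snoRNA:2R:9445410 in obe2/Df alone (-1.90, adjusted p = 0.0461, against -1.10, adjusted p = 0.302). The contrast of the mutant groups called none of the 3. Each of these 4 calls was lost when 1 of several libraries was left out, and with no minimum on the mean. In the authors' deposited table adjusted p was 0.587 and 0.495 for Psi28S-1153, 0.327 for 2R:9445205 in obe1/obe2 and 0.0452 for 2R:9445410 in obe2/Df. DESeq2 did not call Psi28S-1153 in obe2/Df (adjusted p = 0.0730), a call lost in 14 of 20 alternatives. For Psi28S-1153 in obe1/obe2 they were OreR replicates 1 and 2, obe1/obe2 replicates 1 and 3 and obe2/Df replicate 2 (adjusted p 0.0546 to 0.114), and in obe2/Df every library but OreR replicate 3 (0.0530 to 0.151). For 2R:9445205 they were OreR replicates 1 and 2, obe1/obe2 replicates 1 and 3 and obe2/Df replicates 2 and 3 (0.0535 to 0.132). For 2R:9445410 they were the 3 OreR replicates, obe1/obe2 replicate 3 and obe2/Df replicates 1 and 3 (0.0557 to 0.143). The adjacent gene link had 13625, 7551 and 5676 normalized counts in OreR, against 2044, 6899 and 3201 for obe1/obe2 and 26.04, 2580.0 and 2254 for obe2/Df, and was called lower in obe2/Df (-3.95, adjusted p = 0.0484). Whether reads of link reach the snoRNA genes was not tested.

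A further pair passed the test in obe2/Df and not in obe1/obe2. Gene snoRNA:Psi18S-301, between CG5191 and TFAM on arm 3R, had 52.9, 28.8 and 37.0 normalized counts in OreR, against 15.3, 43.9 and 13.9 for obe1/obe2 and 9.77, 2.57 and 13.5 for obe2/Df. Its call in obe2/Df (log2 fold change -2.26, SE 0.64, adjusted p = 0.0143) was lost without OreR replicate 1 (adjusted p = 0.0506), and its value was -1.65 without obe2/Df replicate 2. Gene snoRNA:MeU5-C46, which the current annotation calls a scaRNA for U5 snRNA, had 41.2, 14.4 and 13.1 in OreR, against 4.79, 22.9 and 6.30 for obe1/obe2 and 2.604, 2.57 and 2.54 for obe2/Df. It was 5.86-fold lower in obe2/Df (-2.55, SE 0.65, adjusted p = 0.00891), resting on 9 reads there. In obe1/obe2 both overlapped OreR and passed no test (-0.83 and -1.06), and the direct contrast of the mutant groups passed for neither (adjusted p = 0.0967 and 0.0890). MeU5-C46 lies in an intron of CG1142, which passed neither test (0.31 and 0.11).

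The other 10 tested snoRNA genes passed no test, with log2 fold changes from -1.12 to 1.19 in obe1/obe2 and from -1.74 to 1.25 in obe2/Df. The 4 with the highest means among them were Psi18S-531, snoRNA:185, Me28S-A1322 and Psi28S-612. Gene snoRNA:Psi18S-531 had 122, 58.4 and 88.3 normalized counts in OreR, against 72.7, 106 and 81.9 for obe1/obe2 and 106, 107 and 129 for obe2/Df. Its groups overlapped (0.00, SE 0.31, and 0.40, SE 0.31). Gene snoRNA:185, which lies between glutamate tRNA genes, had 83.5, 79.5 and 135 in OreR, against 77.5, 96.1 and 56.7 for obe1/obe2 and 77.5, 78.3 and 87.2 for obe2/Df, again with overlap (-0.36 and -0.25). Gene snoRNA:Me28S-A1322, in an intron of the translation elongation factor gene Ef1alpha48D, had 55.3, 48.2 and 49.0 in OreR, against 42.1, 47.6 and 42.9 for obe1/obe2 and 42.3, 36.0 and 40.6 for obe2/Df. Those groups did not overlap, as for 20.2% and 34.3% of all tested genes lower in the obe groups, but the difference passed neither test (-0.20, adjusted p = 0.601, and -0.35, adjusted p = 0.248). Gene snoRNA:Psi28S-612 overlapped between groups (-0.46 and 0.01).

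**Figure D4:**
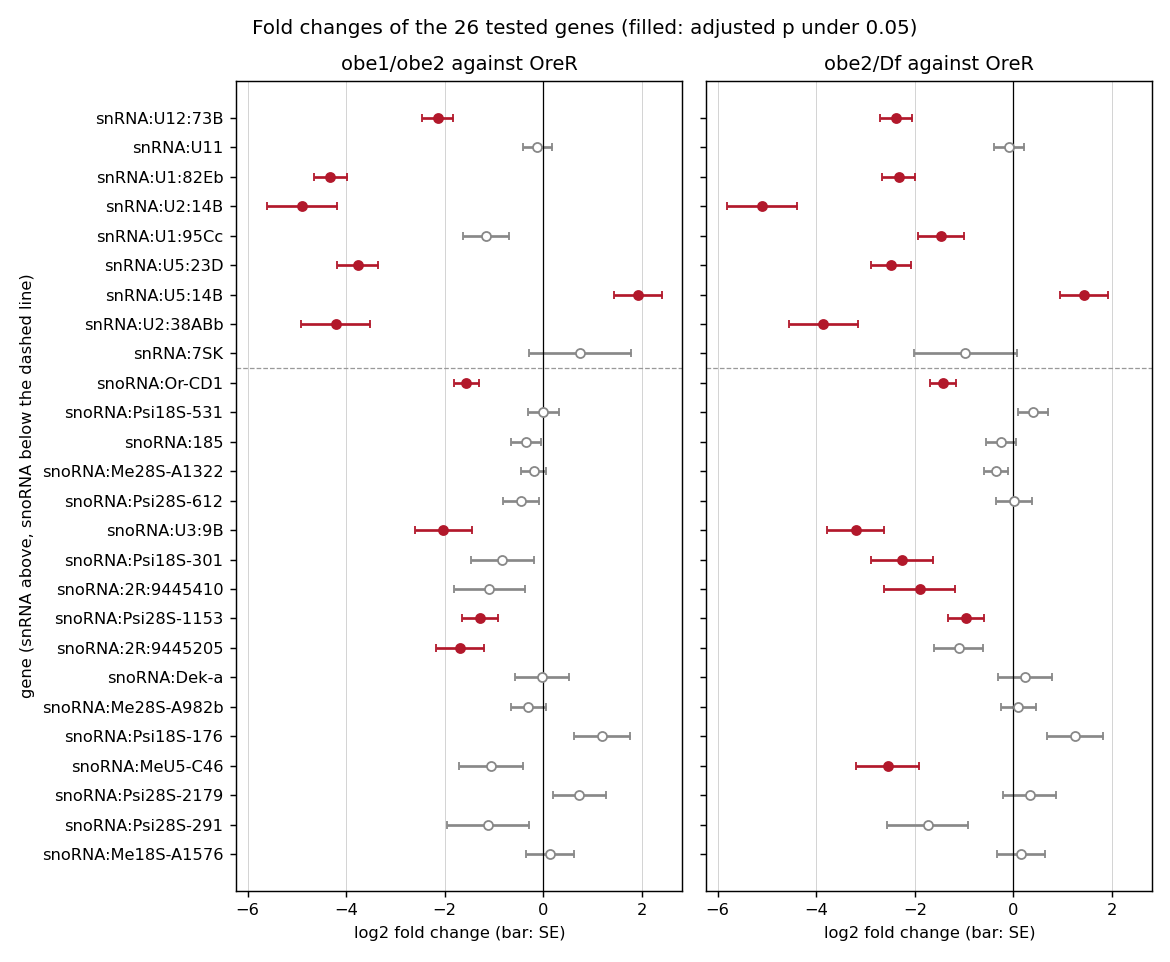
Log2 fold change of the 26 tested genes in obe1/obe2 (left) and obe2/Df (right) against OreR, with the SE as bars and filled points where the adjusted p is under 0.05. The snRNA genes spread from -4.90 to 1.92 in obe1/obe2 and the snoRNA genes from -2.03 to 1.19. Both panels use the same OreR libraries.

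The snoRNAs in introns were set beside their host genes. The 17 tested snoRNAs include 9 that lie in an intron of a tested host gene. Across these 9 pairs of log2 fold changes, in which Psi18S-531 and Psi28S-2179 share the host RpL22, Pearson's r was -0.63 in obe1/obe2 and -0.29 in obe2/Df, and Spearman's rho was -0.32 and -0.38. Psi18S-531 also lies in an intron of CR42491, which was left out of the pairs and passed neither test (-0.42 and -0.67). Without Or-CD1 and Swim, a pair left out after the values were seen, r was -0.21 and -0.02 over 8 pairs, and rho was -0.02 and -0.35. The 5.84 of Swim depends on the pseudocount, since its OreR libraries are at 0. RpL22, a ribosomal protein gene, was lower in both obe groups (log2 fold change -0.53, adjusted p = 0.00395, and -0.76, adjusted p = 0.000338), while Psi18S-531 and Psi28S-2179 passed neither test. RpL3, another, was lower in both (-0.62, adjusted p = 0.00171, and -1.01, adjusted p = 9.19e-05), and its snoRNA Psi28S-291 had -1.12 (adjusted p = 0.360) and -1.74 (adjusted p = 0.0967). The hosts of Me28S-A982b and Me18S-A1576, the noncoding genes Uhg4 and Uhg2, and the host of Dek-a, Dek, were called in neither comparison with OreR, nor were their snoRNAs.

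**Figure D5:**
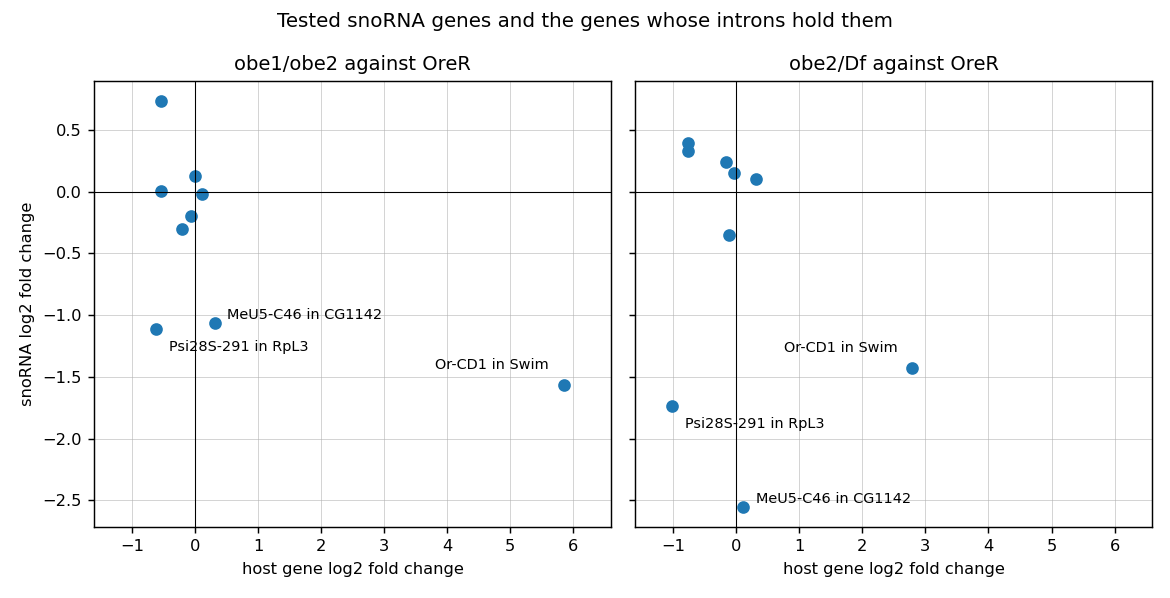
Log2 fold change of each of 9 tested snoRNA genes against that of the gene whose intron holds it, in obe1/obe2 (left) and obe2/Df (right) against OreR. Or-CD1 lies at the lower right, below 0 while its host Swim is at 5.84 and 2.79, and most other hosts lie within 1.01 of 0.

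Of the 87 host genes of snoRNA members in the matrix, 82 were tested. In obe1/obe2 6 were higher and 13 lower, with a median log2 fold change of -0.05, and in obe2/Df 8 were higher and 27 lower, with a median of -0.16. These were 7.32% higher and 15.9% lower in obe1/obe2, where 11% and 11.7% of all tested genes were called, and 9.76% higher and 32.9% lower in obe2/Df, where 31% and 29.5% were. Of 7 noncoding host genes of the Uhg group, whose spliced RNA has no known protein, 0 were higher in either comparison by limma, edgeR or DESeq2, with 1 higher in obe1/obe2 at an unadjusted limma p under 0.05. Uhg5 was lower in both (-1.37, adjusted p = 0.0200, and -2.17, adjusted p = 0.00113) and Uhg1 in obe2/Df (-1.31, adjusted p = 0.00672), while the median of the 7 was -0.04 and -0.54.

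The 293 members below the minimum mean were counted too thinly for single tests, and 75 of the 319 members were at 0 in all 9 libraries. Summed normalized counts of the 12 snRNA genes below the minimum with a read were 60.4 ± 1.06 for OreR, 25.7 ± 4.89 for obe1/obe2 and 17.8 ± 8.68 for obe2/Df (SD, n = 3 libraries each). The 202 such snoRNA genes summed to 511 ± 175, 330 ± 106 and 173 ± 32.9, and the 4 scaRNA genes to 7.91 ± 2.52, 4.35 ± 1.84 and 1.08 ± 0.993. The snRNA sums of OreR lay above those of all 6 obe libraries, whereas for snoRNA genes OreR (344 to 693) overlapped obe1/obe2 (233 to 442) and lay above obe2/Df (136 to 200). With no minimum on the mean, 5 of 21 snRNA genes with a read were called lower and 1 higher in obe1/obe2, and 9 lower and 0 higher in obe2/Df. For snoRNA genes these counts were 7 lower and 1 higher of 219 in obe1/obe2 (3.20% and 0.457%), where 7.09% of all genes were called lower and 7.05% higher, and 34 lower and 0 higher in obe2/Df (15.5% lower), where 20.2% of all genes were called lower and 20.4% higher. Between the mutant groups 8 snoRNA genes were lower and 0 higher in obe2/Df, where 11.9% and 15.8% of all genes were called. With no minimum, the shares of snoRNA genes called lower were thus below those of all genes. The snRNA shares against OreR (23.8% and 42.9%) were above them. Of those 219 snoRNA genes, 202 were below the minimum mean, and their few reads limit what can be called. Among the 17 tested snoRNA genes the order was the other way, with 23.5% and 35.3% lower against 11.7% and 29.5% of all tested genes. The number of snoRNA genes with a read in a library was 108 to 161 for OreR, 103 to 150 for obe1/obe2 and 71 to 101 for obe2/Df. Of the 202 snoRNA genes below the minimum, 180 had a read in any OreR library, 167 in any of obe1/obe2 and 126 in any of obe2/Df. For the 12 snRNA genes this was 11 in each group. Being at 0 in obe2/Df was thus common among the low snoRNA genes. The 3 members named next are examples at 0 or nearly so there, chosen after their values were seen. U4:39B, a copy of the RNA that escorts U6 into the spliceosome, had 15.3, 13.5 and 10.7 in OreR, against 3.83, 4.58 and 2.52 for obe1/obe2 and 1.30, 0 and 0 for obe2/Df. U7, which directs the 3′ end cut of histone mRNA, had 4.70, 5.92 and 4.78, then 0, 0.916 and 3.78, then 0 in all 3. Or-CD4, a snoRNA in Uhg5, had 14.1, 12.7 and 14.3, then 1.91, 5.49 and 1.26, then 0 in all 3, and its host Uhg5 was lower in both obe groups as given above.

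The genes of proteins that bind and mature these RNAs were read from lists of the pathway. The counts below stand against 11% of all tested genes called higher and 11.7% lower in obe1/obe2, and 31% higher and 29.5% lower in obe2/Df. Of 8 core snoRNP proteins all were tested, and 2 were higher and 0 lower in each comparison with OreR, and 0 were lower at an unadjusted limma p under 0.05. That is 25.0% higher, above the share of all tested genes in obe1/obe2 and below it in obe2/Df. They were nop5 (log2 fold change 0.73, adjusted p = 0.00166, in obe1/obe2 and 0.28, adjusted p = 0.0461, in obe2/Df) and the methyltransferase Fib (0.43, adjusted p = 0.0282) in obe1/obe2, and hoip (2.74, adjusted p = 0.00232) in obe2/Df. Of 7 snoRNP assembly and processing factors, 2 were higher and 1 lower in obe1/obe2, and 2 were higher and 3 lower in obe2/Df. The helicase gene pont was lower in both (-0.41, adjusted p = 0.00874, and -0.70, adjusted p = 0.000328), Dis3, a nuclease gene, was higher in both (0.28, adjusted p = 0.0169, and 0.27, adjusted p = 0.00758), and Nopp140 was higher in obe1/obe2 (0.52, adjusted p = 0.0260). In obe2/Df the RNA chaperone gene La was higher (1.96, adjusted p = 0.00196) and rept and the nuclear exosome nuclease gene Rrp6 were lower (-0.50 and -0.40).

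Of 14 tested genes for snRNP biogenesis, 1 was higher and 2 were lower in obe1/obe2, and 1 was higher and 7 were lower in obe2/Df. The share lower was 14.3% in obe1/obe2, near that of all tested genes, and 50.0% in obe2/Df. Smn, which loads Sm proteins onto snRNAs, was lower in both (log2 fold change -0.49, adjusted p = 0.00920, and -0.70, adjusted p = 0.000820), as was the cap-binding protein gene Cbp20 (-0.41, adjusted p = 0.0470, and -0.60, adjusted p = 0.00378). Ars2 and icln were lower in obe2/Df (-0.64 and -0.51), and CG2941 was higher in both groups (0.34, adjusted p = 0.0271, and 0.25, adjusted p = 0.0402). Of 16 tested subunits of Integrator, which cuts the 3′ ends of snRNAs, and of the snRNA promoter complex SNAPc, 2 were higher and 2 lower in obe1/obe2, and 7 were higher and 5 lower in obe2/Df. Those are 12.5% each way in obe1/obe2 and 43.8% higher and 31.2% lower in obe2/Df, of which the first pair and the last lie near the shares of all tested genes. IntS11, the cutting subunit of Integrator, was lower in both groups (-0.52, adjusted p = 0.00211, and -0.72, adjusted p = 0.000236). IntS9, its partner, was called lower in obe2/Df (-1.21, adjusted p = 4.30e-05) and not in obe1/obe2 (-0.26, adjusted p = 0.0785), while Pbp45 of SNAPc was higher in both (0.81 and 0.80) and IntS1 and omd were higher in obe2/Df (1.32 and 0.91). IntS3 was higher in obe1/obe2 (0.52, adjusted p = 0.00492), and IntS10 was lower in both (-0.32, adjusted p = 0.0349, and -0.31, adjusted p = 0.0172). Of 5 proteins of the 7SK particle and P-TEFb, 0 were called in obe1/obe2 by limma, edgeR or DESeq2, with 1 higher and 1 lower at an unadjusted limma p under 0.05, and in obe2/Df CycT was higher (1.24, adjusted p = 0.000387) and Cdk9 lower (-0.40, adjusted p = 0.00522).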

How the data were processed

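RNA of 9 libraries, 3 each of OreR, obe1/obe2 and obe2/Df, was sequenced by the authors, and STAR, Cuffdiff and Cufflinks 2.1.1 are named in the submitters' processing notes, with genome build dm3, without roles. Reads were counted per gene with featureCounts, per the file headers. The deposited matrix holds a normalized count signal, which the authors made by dividing gene counts by 1 factor per library. The authors' deposited tables also hold a fold ratio, a p-value and an adjusted p-value of each obe group against OreR, made with DESeq per the file headers, and these are quoted as theirs. No file read here says how reads with several matches were counted.

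Dividing each column by the worth of 1 read gave whole reads for 100% of the values (tolerance 0.001 read), 61007517 to 123121486 per library. The main test was limma 3.58.1 (R 4.3.3; moderated, with trend, two-sided) on log2(normalized count + 1) in 1 fit of all 9 libraries, over the 8346 genes with a mean of at least 10. A fold change on this scale understates that of low genes. Genes were called at a Benjamini-Hochberg adjusted p under 0.05. The script was tested on simulated data. Ratios of summed reads have exact 95% intervals that cover counting error only. Deposited symbols were matched to the current reference annotation for 288 of 319 members, used only for names, hosts, chromosome arms and neighbours, since its build is not that of the files, so no coordinates are given. Its annotation gives 254 members a host. Replicates of a group differed by more than sampling noise in every pair, by a chi-square test over genes.

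Alternatives were pseudocounts 0.5 and 5, no minimum, a minimum of 50, TMM factors, quantile normalization, array weights, a replicate block, the 6 libraries of each pair, edgeR 4.0.16 and DESeq2 1.42.0 on recovered reads, the authors' tables and each library left out in turn. Named are all tested snRNAs, the 6 snRNA and 6 snoRNA genes of highest mean, up to 8 called members per class, hosts of named snoRNAs, up to 4 called genes per list, obe and crb. The members and lists were chosen with earlier results of these data known, so no p-value is adjusted over a list alone. Figures were drawn with matplotlib 3.10.9.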

Additional observations from a re-analysis of the deposited data

How the results depend on the processing

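The calls of U12:73B, U1:82Eb, U2:14B, U5:23D and U2:38ABb against OreR, and of U3:9B, Or-CD1 and MeU5-C46 in obe2/Df, held under every alternative in which they were tested. The 6 snRNA and 4 snoRNA calls of obe1/obe2 against OreR became 2 and 1 with a minimum mean of 50, at which fewer members are tested. The snoRNA count was 8 with no minimum, 2 in the fit of the 6 libraries and 0 in the authors' deposited table. With no minimum the obe1/obe2 calls of U3:9B, Psi28S-1153 and 2R:9445205 were nonetheless lost (limma adjusted p = 0.0536, 0.0767 and 0.0672). The 7 snRNA and 6 snoRNA calls of obe2/Df became 2 and 1 with a minimum of 50, and with no minimum 34 snoRNA and 1 scaRNA gene were called. Between the mutant groups, the 2 snRNA calls became 1 with a pseudocount of 5, a minimum of 50, DESeq2 or the 6 libraries, and the 0 snoRNA calls became 8 with no minimum and 2 with array weights. The cause of these moves was not tested. With 1 library left out, snRNA calls ranged from 5 to 6, 5 to 7 and 1 to 2 and snoRNA calls from 1 to 4, 4 to 6 and 0 to 1, in the order obe1/obe2 and obe2/Df against OreR and obe2/Df against obe1/obe2. The sign of U11 changed (-0.30 to 0.10 with 1 library left out and -0.51 with array weights in obe1/obe2, and -0.26 to 0.084 in obe2/Df), as did that of 7SK in obe2/Df (-2.01 to 0.20), neither of them called. U1:95Cc was called in obe1/obe2 with array weights (-1.88, adjusted p = 0.00544).

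Deviations of same-numbered libraries from their group means correlated at -0.20 to 0.076 between OreR and the obe groups. Between obe1/obe2 and obe2/Df the same-number values were 0.52, 0.38 and 0.005, against -0.49 to 0.38 for different numbers. With 3 libraries per group these values cannot settle whether the numbers pair the libraries. With the replicate block, snoRNA calls in obe1/obe2 were 1 in place of 4, and no other count of calls moved by over 1.5 times. Low counts limit most members, since 293 of 319 had a mean under 10.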
